A study of Mus musculus with 25 samples.

Results

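The genes described here are 10 members of the Notch pathway and of its Hes and Hey effector family, chosen by name: the receptors Notch1, Notch2 and Notch3, the ligands Dll1 and Jag1, the DNA-binding factor Rbpj, and the bHLH proteins Hes1, Hes6, Hey1 and Heyl. They are 10 of 26182 mouse genes with curated RefSeq transcripts, of which 21000 are protein-coding, and each was located on mm10, the assembly GRCm38. Every peak of Spin1 and of H3K4me3 was then read at the transcription start sites (TSSs), in the gene body and within 50 kb on each side.

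Both peak lists came from primary myoblasts, cultured muscle precursors taken from limb muscle of C57BL/6 mice (C57BL/6 N in the study's methods) at an age of 10 days, enriched by preplating and grown to about 70% confluency. The cells carried no named allele and no treatment is given for them. Chromatin was precipitated with a custom Spin1 antibody or with an antibody against H3K4me3, trimethylated lysine 4 of histone H3, and input DNA served as control. Each antibody gave 1 library without a replicate, so the spread between cultures is unknown, no test was possible, and all comparisons below are descriptions of these 2 libraries.

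Spin1 is a histone reader that binds H3K4me3, a mark found around the start sites of active genes. In the Notch pathway, a ligand on one cell binds a receptor on its neighbor, the receptor is cleaved, and its intracellular domain enters the nucleus, where it turns Rbpj from a repressor into an activator of Hes and Hey genes. In skeletal muscle, the pathway is known for keeping progenitors and satellite cells undifferentiated, while Hes6 opposes Hes1 and favors differentiation.

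All 10 promoters carried both peaks. A promoter was the window TSS±1 kb of any curated transcript, and an overlap of 1 bp was enough. A Spin1 peak lay at 10 of 10 member promoters, beside 50.7% of all genes, and an H3K4me3 peak lay at 10 of 10, beside 61.9%. Both peaks were present at 10 of 10, beside 50.6% of all genes and 56.7% of protein-coding genes. With the peak center, in place of any overlap, required in the window, 7 members kept Spin1, and Hes6 alone kept both peaks, beside 39.7% of all genes, as most centers lay further into the gene.

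RefSeq promoter sequence was at hand for 7 members with 10 start sites (Notch1, Notch2, Notch3, Dll1, Jag1, Rbpj and Hes6), and Hes1, Hey1 and Heyl had no entry. The stretches below are shown because they hold, among these promoters, the core of the Rbpj site or an E-box. Each runs 5′ to 3′ in the direction of the gene over the 200 bases before a TSS on GRCm38, and each lay under an H3K4me3 and a Spin1 peak, at Dll1 with the outer Spin1 edge inside the stretch. Capitals mark TGGGAA or its reverse complement TTCCCA, the core bound by Rbpj, and CAGCTG, an E-box of the kind bound by myogenic bHLH factors such as Myod1.
Rbpj, chr5:53590146-53590345, plus strand: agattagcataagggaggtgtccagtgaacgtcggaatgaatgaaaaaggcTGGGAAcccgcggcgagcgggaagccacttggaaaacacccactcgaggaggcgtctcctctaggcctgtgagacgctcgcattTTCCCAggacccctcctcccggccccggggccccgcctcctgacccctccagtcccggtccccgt
Jag1, chr2:137116521-137116720, minus strand: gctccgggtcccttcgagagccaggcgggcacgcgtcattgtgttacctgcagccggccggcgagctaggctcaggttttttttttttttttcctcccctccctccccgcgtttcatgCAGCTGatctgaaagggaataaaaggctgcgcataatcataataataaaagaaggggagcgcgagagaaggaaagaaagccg
Dll1, chr17:15376933-15377132, minus strand: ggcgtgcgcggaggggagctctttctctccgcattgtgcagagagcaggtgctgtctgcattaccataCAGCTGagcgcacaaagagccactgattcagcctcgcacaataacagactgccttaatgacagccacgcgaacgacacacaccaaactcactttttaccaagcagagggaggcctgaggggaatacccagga
Hes6, TSS of the longer transcript, chr1:91414039-91414238, minus strand: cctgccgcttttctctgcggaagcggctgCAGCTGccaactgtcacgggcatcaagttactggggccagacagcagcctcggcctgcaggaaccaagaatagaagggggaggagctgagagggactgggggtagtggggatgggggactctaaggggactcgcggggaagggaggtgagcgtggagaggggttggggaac
Hes6, main TSS, chr1:91413223-91413422, minus strand: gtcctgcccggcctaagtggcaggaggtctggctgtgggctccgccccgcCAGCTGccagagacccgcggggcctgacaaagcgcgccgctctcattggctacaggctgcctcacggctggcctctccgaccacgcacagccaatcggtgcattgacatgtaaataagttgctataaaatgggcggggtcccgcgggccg

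The Rbpj core stood at 1 of the 7 members with promoter sequence, Rbpj itself. The promoters of Hes1, Hey1 and Heyl, the members described below as targets of Notch or induced by it, were not searched. The window searched on both strands was 250 bases before to 50 after a TSS, in which TGGGAA occurred in 24.2% of 20488 protein-coding promoters. In the Rbpj promoter the matches began at −149 on the plus strand and at −65 on the minus strand, counted from the TSS at 53590346. The longer form GTGGGAA, which contains TGGGAA, stood in 0 of the 10 member promoters and in 6.21% of coding promoters, and TGTGAA in 0 and in 12.6%. Counted by promoter, 2 of 10 held it, both of Rbpj, whose 2 windows overlap. In the longer window TSS±0.5 kb, TGGGAA was present at 8 of 10 member promoters and at 6 of 7 members, all but Jag1, beside 59.5% of coding promoters.

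The E-box CAGCTG was found in 4 of 10 member promoters, which belong to 3 of 7 members, beside 15.8% of coding promoters. It began at −82 in Jag1, at −132 before the upstream TSS of Dll1, at −171 before the upstream TSS of Hes6 and at −150 before its main TSS. Sites known to be bound by Hes and Hey proteins were also counted. The N-box CACNAG stood in 5 of 10 member promoters, beside 41.7% of coding promoters, and the class C site CACGNG in 6 of 10, beside 32.1%. With so few genes, some of them with overlapping windows, these counts are only a description of the sequence, and no binding was measured.

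No member promoter in the table held fewer CpG dinucleotides than the median coding promoter. The number ran from 14 before the upstream TSS of Hes6 to 41 in Notch2, beside a median of 14. GC content ran from 55.7% in Jag1 to 73.0% in Notch2, beside a median of 57.0%.

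The receptors had narrower Spin1 peaks than the ligands, Rbpj, Hes1 and Hes6. Notch1, a receptor needed for muscle progenitors, lies at chr2:26457902-26503822 on the minus strand. Its Spin1 peak was 3409 bp wide and reached 734 bp upstream and 2674 bp downstream of the TSS. Its H3K4me3 peak was 4961 bp wide and reached 1270 bp upstream and 3690 bp downstream. Both peaks also covered the TSS of the RNA gene Gm35978 on the other strand, 105 bp upstream of that of Notch1, so the shared peaks cannot be assigned to either gene.

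Notch2, the receptor with the longest gene of the list (chr3:98013538-98150367, plus strand, 136830 bp), had a Spin1 peak of 2897 bp under an H3K4me3 peak of 4918 bp, the narrowest H3K4me3 peak of the 10 members. Spin1 reached 2382 bp and H3K4me3 3937 bp into the gene. Notch1 and Notch2 were thus alike in both widths.

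Notch3, a receptor also known from vascular smooth muscle (chr17:32120820-32166890, minus strand), differed from both. Its Spin1 peak had the lowest score of the 10, 1058, and the smallest width, 2126 bp. The H3K4me3 peak, in contrast, was 6461 bp wide and reached 5796 bp into the gene, 4040 bp further than Spin1. Only 32.9% of the Notch3 H3K4me3 peak lay under Spin1, a lower share than at any other member, and 1.92% of the 11291 protein-coding genes with both peaks at the main TSS had a lower share.

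The scores used here are those of MACS, in which the negative log10 of a peak's p-value relative to input is multiplied by 10, and they pile up at 3100 so that peaks with this value have no order. At 7 of 10 members the Spin1 promoter peak had reached 3100, beside 48.9% of the protein-coding genes with a Spin1 promoter peak. The 3 members below this value were Notch3, Hey1 with 1679 and Heyl with 2048. The H3K4me3 score was 3100 at all 10, so only the width could order them.

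Both ligands had wide peaks. Dll1, the Delta-like ligand that maintains muscle progenitors in the embryo (chr17:15367354-15376932, minus strand), has 2 TSSs, and 1 Spin1 peak of 4971 bp covered both. The H3K4me3 peak of Dll1 was 8656 bp wide and reached 6386 bp downstream of the main TSS into a gene of 9579 bp. Jag1, a ligand of the Serrate type (chr2:137081451-137116520, minus strand), had a Spin1 peak of 5102 bp and, at 9140 bp, the widest H3K4me3 peak of the list. H3K4me3 reached 7264 bp into Jag1 and Spin1 3402 bp, so that the outer 3862 bp of the domain lay beyond the Spin1 peak.

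Rbpj, the DNA-binding partner of all Notch receptors (chr5:53555779-53657445, plus strand), had the widest Spin1 peak of the list, 6556 bp, and 99.4% of the 11291 genes had a narrower peak. It filled 87.6% of an H3K4me3 peak of 7480 bp. Of the 3 annotated TSSs of Rbpj, those at 53590346 and 53590486 lay under this pair of peaks, while the window around the most upstream TSS at 53555779 held no peak of either kind. Such a split, with both peaks at one TSS and neither at another, was found at 41.9% of 1404 protein-coding genes with TSSs over 5 kb apart.

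Hes1, a repressor that is the classical Notch target (chr16:30065357-30067796, plus strand), is a gene of only 2440 bp and was covered in full. Its Spin1 peak of 6015 bp reached 2493 bp upstream and 3521 bp downstream of the TSS, which is beyond the end of the gene. The H3K4me3 peak of 9093 bp went on to 6180 bp downstream and held a separate Spin1 peak of 1942 bp with a score of 874, centered 4968 bp downstream of the TSS. Together the Spin1 peaks filled 87.5% of the Hes1 domain.

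Hes6, a Hes protein that favors myoblast differentiation (chr1:91411483-91414038, minus strand, 2556 bp), was covered in full as well. The Spin1 peak was 4677 bp wide and the H3K4me3 peak 4946 bp, and their edges lay 136 bp apart upstream and 133 bp apart downstream. With 94.6% of the H3K4me3 peak under Spin1, Hes6 had the highest share of the 10, and 98.5% of the genes with both peaks had a lower one.

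Hey1 and Heyl, bHLH repressors induced by Notch, had narrower Spin1 peaks than Hes1 and Hes6. Hey1 (chr3:8663359-8667038, minus strand) had a Spin1 peak of 2645 bp that reached 1491 bp upstream and 1153 bp downstream, the only member with the longer arm upstream. A second Spin1 peak of 666 bp with a score of 108 was centered in exon 5 of Hey1, and both lay in an H3K4me3 peak of 6329 bp that covered the whole gene. At Heyl (chr4:123233556-123249870, plus strand) the Spin1 peak of 2900 bp began only 40 bp upstream of the TSS, and 0.593% of the 11291 genes had a shorter upstream reach. H3K4me3 at Heyl began 1275 bp upstream and was 5468 bp wide, so 53.0% of it lay under Spin1, close to the 52.3% at Hey1.

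**Figure D1:**
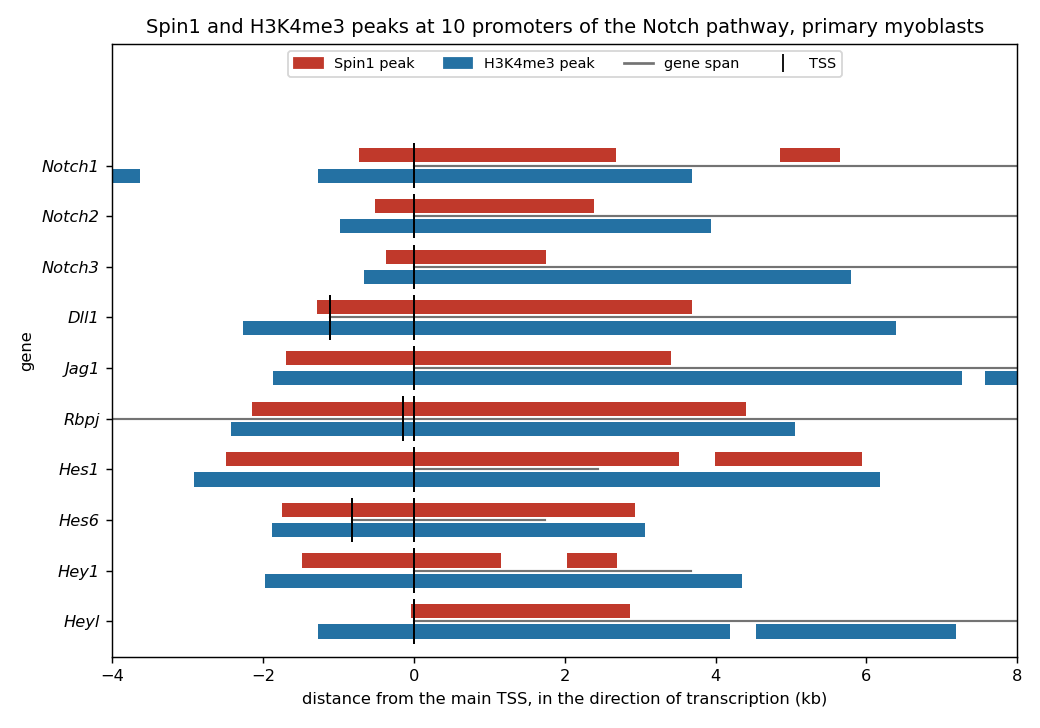
Extent of Spin1 peaks (red) and H3K4me3 peaks (blue) around the main TSS of each gene, drawn over 4 kb before and 8 kb after it, in kb along the direction of transcription, with gene spans in gray and TSSs as black lines. Each Spin1 peak over a main TSS lies within the H3K4me3 peak, which extends further downstream, least at Hes6 (133 bp) and most at Notch3 (4040 bp).

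Taking the 10 promoters as a list, Spin1 lay inside H3K4me3 at 10 of 10 main TSSs, beside 92.2% of the 11291 genes with both. The median Spin1 width over the members was 4043 bp, from 2126 to 6556 bp, beside 2319 bp over all these genes, and 9 of 10 members were above that value. The median H3K4me3 width was 6395 bp, from 4918 to 9140 bp, beside 3548 bp, and all 10 were above it. Among the 11291 genes, 20.5% had an H3K4me3 peak at least as wide as that of Notch2, the narrowest of the members. Over these 2319 genes the median width was 3737 bp for Spin1 and 5957 bp for H3K4me3, closer to the medians of the members. Width from MACS also depends on read depth and antibody, and their part in the difference between the Spin1 and H3K4me3 widths was not tested.

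**Figure D2:**
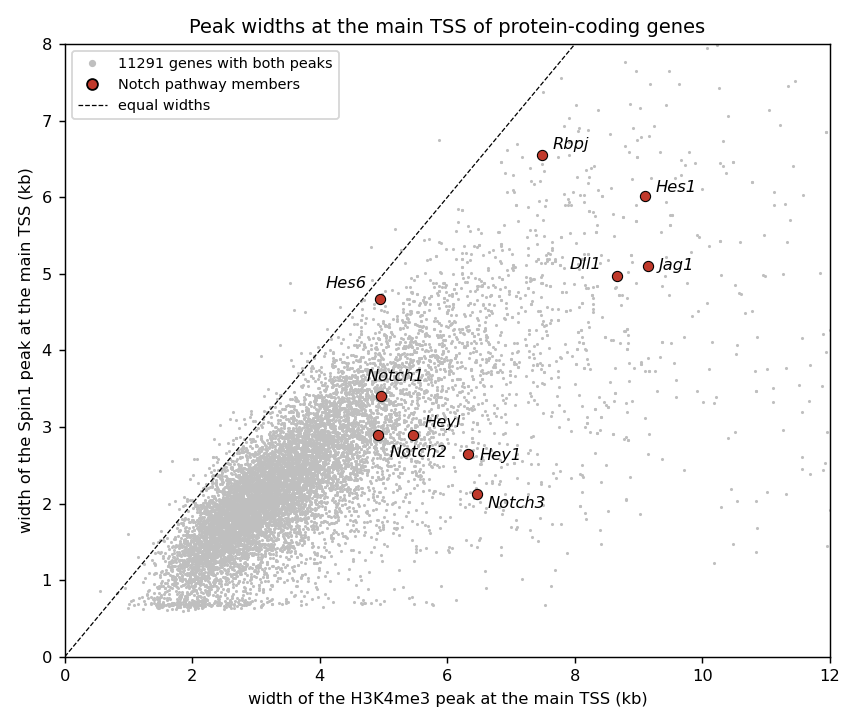
Width of the Spin1 peak against width of the H3K4me3 peak at the main TSS, both in kb, for 11291 protein-coding genes with both peaks (gray, of which 65 lie outside the axes) and the 10 members (red). All members lie to the right of the H3K4me3 median of 3548 bp, with Rbpj, Hes1, Jag1 and Dll1 among the widest for both and Notch3 low for its H3K4me3 width.

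The members exceeded the median of all genes with both peaks more downstream of the TSS than upstream of it. Spin1 reached a median of 2894.5 bp downstream and 1389.5 bp upstream at the members, beside 1420 and 771 bp over all genes with both peaks. For H3K4me3, the median downstream reach was 4699.5 bp, beside 2189 bp, and its median upstream reach 1878.5 bp, beside 1153 bp. At the 2319 genes with H3K4me3 at least as wide as at Notch2, the Spin1 medians were 2280 bp downstream and 1248 bp upstream. Their H3K4me3 medians were 4010 bp downstream and 1909 bp upstream, the latter slightly above that of the members. A longer arm downstream is the usual form, since Spin1 had it at 9 of 10 members beside 82.3% of the genes, and H3K4me3 at 10 of 10 beside 84.8%.

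Beyond the edges of the Spin1 peak over the main TSS, H3K4me3 went on for a median of 2107 bp downstream and 442.5 bp upstream at the members, beside 740 and 381 bp over all genes with both peaks. The downstream extension was the longer of the 2 at 9 of 10 members, all but Hes6, beside 73.8% of the genes. It was 2659 bp or more at Notch3, Jag1, Hey1, Dll1 and Hes1 and below the general median at Rbpj, with 647 bp, and at Hes6. At Hes1 and Hey1 the separate Spin1 peak lay within this stretch, so that 241 and 1658 bp of H3K4me3 were left beyond it. Counted from the outermost Spin1 peak, the downstream extension had a median of 1444 bp, beside 698 bp, and was the longer at 8 of 10 members, all but Hes1 and Hes6, beside 73.3% of the genes. The median share of the H3K4me3 peak under Spin1 was 58.2% over the members and 66.9% over all genes, with Hes6, Rbpj, Hes1 and Notch1 above the latter. Among the 2319 genes whose H3K4me3 peak was at least as wide as that of Notch2, the median share was 65.9% and the median downstream extension from the Spin1 peak over the main TSS 1507 bp.

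**Figure D3:**
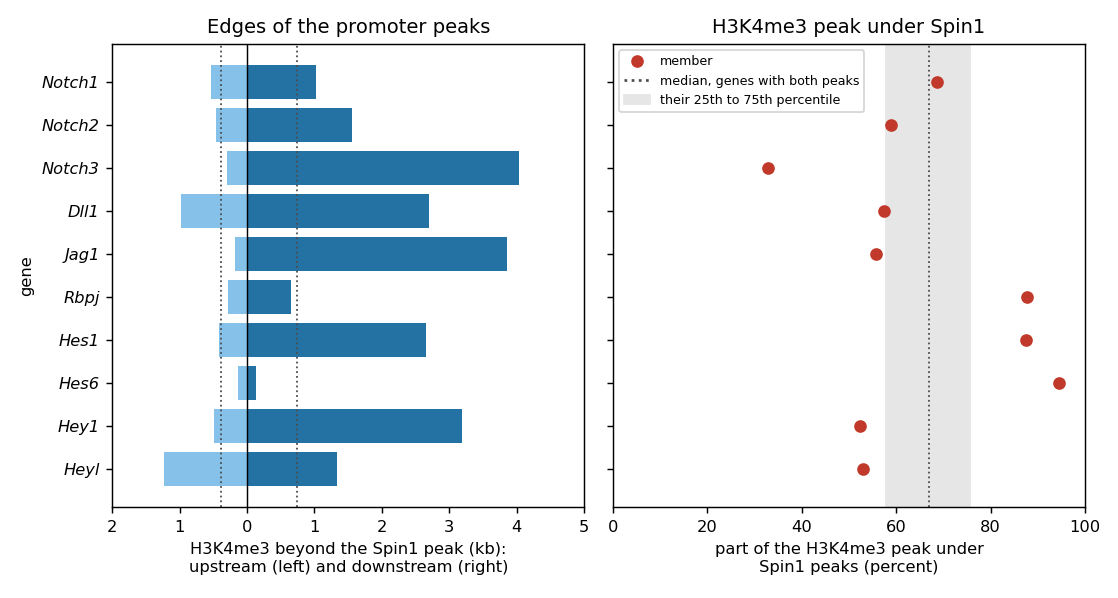
Left, length in kb by which the H3K4me3 peak of each member extends beyond the Spin1 peak over its main TSS, upstream (light bars) and downstream (dark bars), with dotted lines at the medians of all genes with both peaks (381 and 740 bp). Right, percent of each H3K4me3 peak under Spin1 peaks, from 32.9% at Notch3 to 94.6% at Hes6, with the median of 66.9% (dotted) and the range from the 25th to the 75th percentile (gray band) of the same genes.

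A second Spin1 peak under the same H3K4me3 peak was present at 2 of 10 members, Hes1 and Hey1, beside 9.39% of the genes with both peaks. At the other 8 members, 1 Spin1 peak lay under the domain. Coverage of the window TSS±1 kb by Spin1 was 100% at the main TSS of Dll1, Jag1, Rbpj, Hes1, Hes6 and Hey1. It fell to 86.7% at Notch1, 75.7% at Notch2, 68.5% at Notch3 and 52.0% at Heyl, where the Spin1 peak ended less than 1 kb upstream of the TSS.

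Besides the 10 promoter peaks, the loci held 20 further Spin1 and 50 further H3K4me3 peaks. A locus was the gene span with 50 kb on each side, in all 1400.1 kb. Of the 30 Spin1 peaks, 8 lay at promoters of neighboring genes and 12 outside every annotated promoter, 5 in gene bodies and 7 in flanks. Of the 60 H3K4me3 peaks, 11 lay at promoters of neighbors and 39 outside promoters, 17 in gene bodies and 22 in flanks. Neighbors with both peaks were Inpp5e and the pair Sec16a and 0610009E02Rik at Notch1, Pdxk-ps at Notch3, Fam120b at Dll1, Erfe, Ilkap and Per2 at Hes6, and Pabpc4 at Heyl. Ephx3 at Notch3 and Hpcal4 and Nt5c1a at Heyl had H3K4me3 without Spin1.

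Peaks outside promoters were denser at these loci than at coding genes in general. For Spin1 there were 0.857 per 100 kb, beside 0.362 over all protein-coding genes and 0.457 over the 11903 with both promoter peaks. For H3K4me3 there were 2.79 per 100 kb, beside 1.03 and 1.25. At least 1 such Spin1 peak lay at 6 of 10 member loci, beside 31.0% of coding genes and 39.7% of those with both promoter peaks. At least 1 such H3K4me3 peak lay at 9 of 10, beside 60.3% and 71.9%. Hes1 and Hey1 counted for Spin1 only through the second Spin1 peak under the H3K4me3 peak of their own promoter. The members are longer genes, with a median length of 25692.5 bp beside 16724 bp, or 23626 bp for genes with both promoter peaks, and the part of length in these counts was not tested.

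The distal Spin1 peaks were weak. Their scores ran from 99.1 to 874 with a median of 112, beside 145 over all 5309 Spin1 peaks outside promoters, and 10 of 12 were below 200. None of the 12 was among the 50% of Spin1 peaks with the highest score. The median score of the 39 distal H3K4me3 peaks was 190, beside 203 over all 16158. Counted by gene, Notch2 and Notch3 had 3 distal Spin1 peaks each, Notch1 and Rbpj 2 each, Hes1 and Hey1 1 each, and Dll1, Jag1, Hes6 and Heyl 0. Thus the 3 receptors held 8 of the 12.

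Notch2 had the most distal H3K4me3, with 9 peaks that all lay in its gene body, and 98.9% of coding genes had fewer. The largest was centered in intron 1, 12432 bp downstream of the TSS, and was 5000 bp wide with a score of 3100. Although it was as wide as the promoter peak, it carried only a Spin1 peak of 683 bp with a score of 103. The peaks at 29617 bp with a score of 3026 and at 50179 bp with a score of 1402 overlapped no Spin1 peak. No curated RefSeq start lay within 1 kb of these 3 peaks. The nearest start of a GENCODE M21 basic transcript was 2217 bp from the edge of the largest, in the gene model Gm42819. Between the largest peak and that start lay a further H3K4me3 peak, centered at 15645 bp with a score of 338. Its edge was 947 bp from the Gm42819 start. The other edge, at 15089 bp, came close behind the end of the largest peak at 14932 bp. CpG dinucleotides were sparse in the 3 peaks, with 1.24, 1.44 and 1.14 per 100 bases, beside a median of 1.80 over all distal H3K4me3 peaks.

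The remaining distal Spin1 peaks of Notch2 were centered in intron 2, at 42615 and 53841 bp, with scores of 115 and 99.1, and both overlapped H3K4me3 peaks of low score (188 and 210). Within the Notch2 gene body, distal H3K4me3 thus ran from 53.0 to 3100 in score, while the distal Spin1 scores lay between 99.1 and 115.

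At Notch1 and Notch3, Spin1 peaks without H3K4me3 were found. There were 3 of these in all, at 2 of 10 members, beside 9.32% of coding genes and 12.1% of those with both promoter peaks. At Notch1, the one in intron 2 (chr2:26498175-26498967) was centered 5251 bp downstream of the TSS with a score of 103, and the other (chr2:26534185-26535117) 30829 bp upstream with a score of 149. At Notch3, it was centered 57418 bp downstream of the TSS (chr17:32109129-32109816) with a score of 102, past the end of the gene. All 3 were among the weak peaks of the list, whose lowest score was 50.7, and whether an H3K4me3 signal below the threshold lies there cannot be read from a peak list.

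The middle 300 bases of the Spin1 peak in intron 2 of Notch1 are shown, on the plus strand of GRCm38, as an example of Spin1 without H3K4me3 inside a member. The capitals mark CAGCTG, and TGGGAA did not occur.
Notch1 intron 2, chr2:26498421-26498720: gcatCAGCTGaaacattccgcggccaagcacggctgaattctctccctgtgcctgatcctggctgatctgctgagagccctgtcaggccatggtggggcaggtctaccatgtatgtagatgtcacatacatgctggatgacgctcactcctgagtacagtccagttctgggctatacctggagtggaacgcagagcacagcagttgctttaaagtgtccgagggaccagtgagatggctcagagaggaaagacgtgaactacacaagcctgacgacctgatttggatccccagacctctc
Among the 10 distal Spin1 peaks at loci of the 7 members with promoter sequence, the middle 300 bases held CAGCTG at 2, beside 20.4% of all distal Spin1 peaks, and TGGGAA at 2, beside 27.8%.

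Downstream of Notch3, a further Spin1 peak lay over H3K4me3. The peak centered 52869 bp downstream with a score of 133 sat in an H3K4me3 peak of 1713 bp with a score of 3100, which held 4.20 CpG per 100 bases and covered a GENCODE start of the antisense gene Gm17276. It cannot be assigned to Notch3 from its position.

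At Rbpj the distal Spin1 peaks lay 80970 and 64534 bp upstream of the main TSS with scores of 268 and 101, over H3K4me3 peaks with scores of 253 and 96.5. Both were upstream of the unoccupied TSS at 53555779. In total 7 distal H3K4me3 peaks were found at Rbpj, with scores from 58.7 to 253, far below the 3100 at its promoter.

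Distal H3K4me3 without Spin1 was also found at members with no distal Spin1 peak. Dll1 had a peak of 1424 bp with a score of 1182 centered 4838 bp upstream of the main TSS, with 4.42 CpG per 100 bases, and Heyl a peak of 2651 bp with a score of 1682 in intron 1, 5859 bp downstream. Neither overlapped Spin1, and neither lay within 1 kb of a RefSeq or GENCODE start. The Heyl peak began 4534 bp downstream of the TSS, close to the end of the H3K4me3 promoter peak at 4192 bp. From a peak list it cannot be told apart from a split-off part of that domain. Jag1 had 2 weak peaks in intron 2, with scores of 87.2 and 52.6, and a peak with a score of 326 that lay in the neighboring gene Slx4ip. The Jag1 peak with a score of 52.6 began 7577 bp downstream of the TSS, close to the end of the promoter peak at 7264 bp. All 3 distal peaks at the Hes6 locus lay in neighbors, with a score of 99.7 in Ilkap and of 57.4 and 735 in Per2. The one in Ilkap ended at position 91394643, next to the H3K4me3 peak of the Ilkap promoter, which began at 91394648. The single distal H3K4me3 peak at the Hes1 locus, with a score of 130, lay in 4632428C04Rik. These peaks in other genes cannot be assigned to the members from their position. Hey1 alone had no distal H3K4me3 peak. Of the 39 distal H3K4me3 peaks, 32 overlapped no Spin1 peak and 7 did. Peaks close to the edge of a promoter peak, as at Heyl, Jag1 and Ilkap, were counted here as separate peaks.

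**Figure D4:**
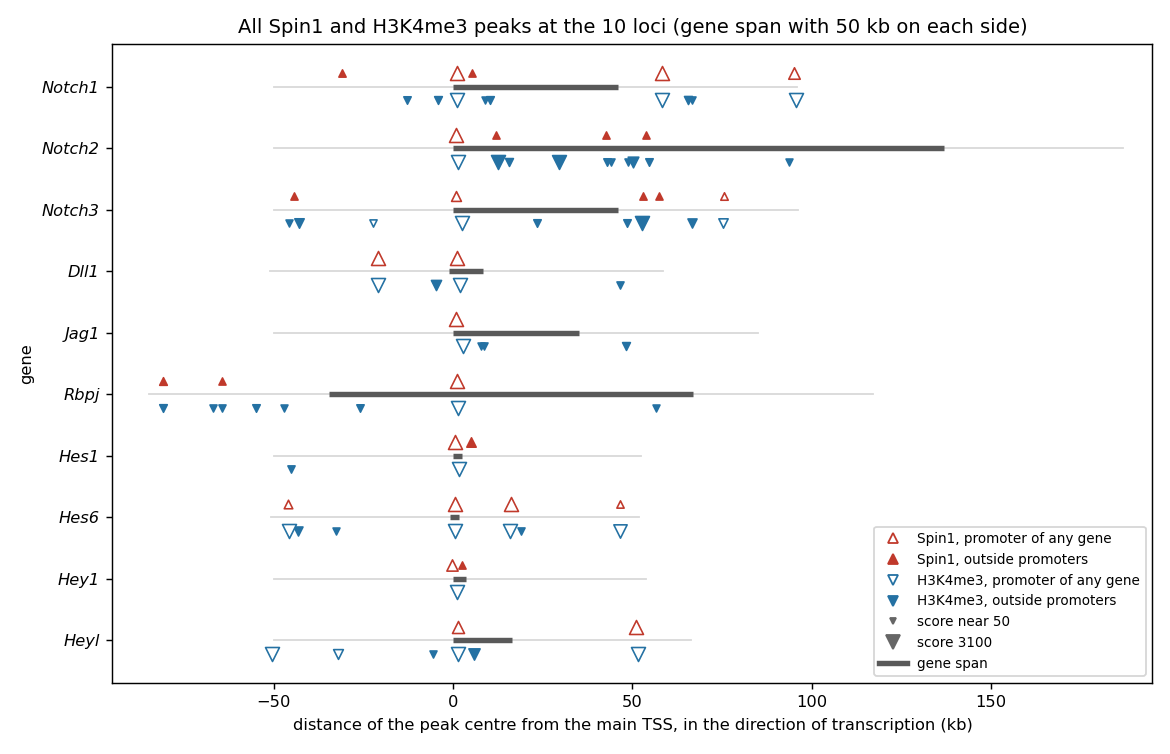
Centers of all 30 Spin1 peaks (upward triangles) and 60 H3K4me3 peaks (downward triangles) at the loci, in kb from the main TSS of each gene along the direction of transcription, with marker area growing with the score up to 3100. Open markers are peaks at a promoter of any gene and filled markers the 12 Spin1 and 39 H3K4me3 peaks outside promoters, of which the Spin1 markers are small and cluster at the receptors and upstream of Rbpj.

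The wider pathway was read from a list of 42 other genes, comprising further receptors and ligands, glycosyltransferases, proteases, coactivators, corepressors, ubiquitin ligases and Hes and Hey genes. Both peaks were present at 33 of 42, beside 56.7% of protein-coding genes, H3K4me3 alone at 7, and neither at 2, and no gene had Spin1 alone. The 7 with H3K4me3 alone were the ligand genes Dll3, Dll4 and Dlk1, the ubiquitin ligase gene Dtx1, and Hes2, Hes3 and Hes5. The 2 with neither were the receptor gene Notch4 and Mfng, a glycosyltransferase that modifies Notch. In contrast, the genes of the Maml coactivators (Maml1, Maml2 and Maml3), which join Rbpj and the cleaved receptor on DNA, all had both peaks.

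Peaks were narrower in this list than at the members. The median of the widest Spin1 promoter peak was 2616 bp, beside 4043 bp for the members and 2295 bp for coding genes with such a peak. For H3K4me3, where the 7 genes with H3K4me3 alone were also counted, it was 3816 bp, beside 6395 and 3250 bp. The widest Spin1 peaks belonged to Tle3, a Groucho corepressor used by Hes proteins, with 5892 bp under an H3K4me3 peak of 11126 bp, to Maml2 with 4725 bp, and to the acetyltransferase gene Ep300 with 4495 bp. The Spin1 score stood at 3100 in 21 of the 33 genes, beside 48.9% of coding genes with a Spin1 promoter peak.

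Within the families, occupancy differed between paralogs. Among the receptors, Notch1, Notch2 and Notch3 had both peaks and Notch4 neither. Among the ligands, Dll1, Jag1 and Jag2 had both, whereas Dll4 had an H3K4me3 peak of 4127 bp without Spin1 and Dll3 one of 836 bp with a score of 95.8. Of the Hes genes, Hes1, Hes6 and Hes7 had both peaks and Hes2, Hes3 and Hes5 did not. The Spin1 peak of Hey2 had a score of 412, below the 1679 of Hey1 and the 2048 of Heyl. Scores of single libraries carry no error here, so these values are given side by side only.

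Marker genes were checked against the label of the cells. All 8 myoblast markers, Myod1 and Pax7 among them, had both peaks, while 0 of 4 hematopoietic and 0 of 3 adipocyte markers had either. Of the fibroblast markers, 6 of 6 had H3K4me3 and 4 of 6 both, namely Pdgfra, Col1a1, Col1a2 and Tcf7l2. Endothelial markers had H3K4me3 at 2 of 4 (Cdh5 and Kdr) and both peaks at 0. The part of other cell types in the peaks of the members was not tested.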

How the data were processed

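Spin1 and H3K4me3 ChIP-seq of primary myoblasts was used, with 1 library each; 23 of the 25 samples of the series were not used here. The authors mapped reads to mm10 with bowtie 2, called peaks with MACS 1.4.2 against input and removed peaks above a false discovery rate of 1%. They deposited peak positions and a score made from the MACS p-value as its negative log10 multiplied by 10; the lists hold no counts, so depth and its precision are unknown.

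Starts were converted to count from 1. Peaks were compared with curated transcripts of RefSeq annotation release 108.20200622 on GRCm38; the main TSS was that of the RefSeq Select transcript, otherwise of the longest. Promoter sequence came from RefSeq, other sequence from GRCm38. Overlap counts were checked on simulated data.

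The members and gene lists were chosen with earlier results of these data known. All 10 members were described; of the other pathway genes, those lacking Spin1 and the 3 with the widest Spin1 peak were named by rule, and further genes were named after their values were seen. Results on some neighboring, pathway and marker genes are not reported here. Alternatives covered promoter window, transcripts, score minimum, peak assignment, flank and motif window. Python 3.11.15, NumPy 2.4.6, SciPy 1.17.1, pysam 0.24.0 and matplotlib 3.10.9 were used.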

Additional observations from a re-analysis of the deposited data

How the results depend on the processing

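The 10 results were recomputed under 61 alternatives, and 53 stayed within 1.5 times the reported count or, for median widths, within the second lowest and second highest member. The window of TSS±0.5 kb or TSS±2 kb, 1 kb upstream to 0.1 kb downstream, 1 TSS per gene and a score of at least 100 left 10 of 10 members with both peaks. When the peak center had to lie in the window, 7 members kept Spin1 (all but Dll1, Rbpj and Heyl), 1 kept H3K4me3 and 1, Hes6, kept both, since centers of wide one-sided peaks fall beyond it; the share of coding genes with both was then 45.2%. With the 50% of peaks of highest score, Notch3 lost Spin1, distal Spin1 peaks fell to 0, distal H3K4me3 peaks to 4 and Spin1 peaks without H3K4me3 to 0. A score of at least 100 left 24 distal H3K4me3 peaks, and flanks of 100 kb gave 5 Spin1 peaks without H3K4me3. The Rbpj core rose from 14.3% of the members with promoter sequence to 85.7% (all but Jag1) in TSS±0.5 kb, where 59.5% of coding promoters held it, as a longer window holds more matches. Taking GENCODE M21 starts as promoters too, chosen after seeing the data, left 11 distal Spin1 and 35 distal H3K4me3 peaks. No paired analysis was possible because each antibody gave 1 library. Depth is unknown, and a missing peak does not show that Spin1 is absent.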
